A study of Mus musculus with 36 samples.

Results

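The replication-dependent histone genes were followed through the DNase hypersensitive sites (DHS) at their transcription starts. Members were chosen by name and position: a DHS belonged to the set when 1000 bp or less separated it from the transcription start site (TSS) of a gene with a symbol starting Hist1h, Hist2h, Hist3h or Hist4h in the GENCODE vM21 annotation of mm10. The rule gave 40 of the 52788 DHS in the table, at 47 of the 70 histone genes. The annotation lists Hist1h2aj, Hist1h2al and Hist3h2bb-ps among these genes as pseudogenes. No measured value entered the choice. A DHS within 1000 bp of any TSS is called a promoter DHS here, and 13657 DHS were of that kind.

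The genes of this group encode the core histones H2A, H2B, H3 and H4, around which DNA is wound, and the linker histone H1. Each core histone is encoded by many near-identical gene copies in a few clusters. The genes are transcribed mainly during S phase, when new DNA has to be packaged. H2A and H2B genes are often arranged head to head with one shared promoter region. The mRNAs carry no poly(A) tail and end in a stem-loop that is bound by the protein Slbp.

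DNase-seq reads out open chromatin from the fragments that the enzyme DNase I releases. The 36 libraries came from the mouse pre-B line B3 and formed 12 groups of 3. In the Ikaros line a retroviral MSCV vector carried HA-tagged Ikaros, a transcription factor of lymphocytes, fused to the ERt2 hormone-binding domain and followed by IRES and GFP. The control line carried the empty ERt2 vector. Both were sampled at 0, 2, 6, 12, 18 and 24 h, each as a transduced pool of the same parent line under the viral promoter rather than as cells with a changed Ikaros gene. The labels give 0.5 µM 4-hydroxytamoxifen for every group, whereas by the study's methods the 0 h cells received none and were harvested apart from the rest, so at 0 h harvest and time cannot be told apart. Replicates 4, 5 and 6 belong to batches 11, 12 and 13. Values are log2 RPKM after TMM scaling and a correction for unwanted variation, both by the authors, and library medians over all DHS lay between 3.90 and 4.11. Of 11 pre-B markers, 8 had a promoter DHS, namely Cd79a, Cd79b, Vpreb1, Igll1, Ebf1, Pax5, Rag1 and Il7r, and of 10 markers of other lineages 1 had one (Lyz2).

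The promoter sequences below show what the H4 genes share and how the arrangement of an H2A and H2B pair differs. Each H4 stretch is the 150 bases before the RefSeq start on GRCm38.p6, printed 5′ to 3′ on the strand of the gene. In the order printed, the RefSeq start lies −30, −48, 0, −19, −20 and −30 bp from the GENCODE start used for the DHS, where negative is upstream. Capitals mark GGTCCG, a part of the H4 promoter element, TATAAA and CCAAT on either strand. Hist1h4j (chr13:21734884-21735033, plus strand), Hist1h4k (chr13:21750554-21750703, minus strand), Hist1h4i (chr13:22041363-22041512, minus strand) and Hist1h4a (chr13:23761250-23761399, minus strand) are shown because the DHS over their starts changed between the lines from 0 to 24 h. Hist1h4f (chr13:23551669-23551818, minus strand) and Hist1h4d (chr13:23581418-23581567, plus strand) are shown because theirs did not pass that test.
Hist1h4j: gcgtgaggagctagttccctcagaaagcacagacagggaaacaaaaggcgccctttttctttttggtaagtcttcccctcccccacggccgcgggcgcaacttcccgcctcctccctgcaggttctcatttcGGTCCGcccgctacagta
Hist1h4k: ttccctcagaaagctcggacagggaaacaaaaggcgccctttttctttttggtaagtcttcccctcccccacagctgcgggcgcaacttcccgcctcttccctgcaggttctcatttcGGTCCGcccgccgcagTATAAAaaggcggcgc
Hist1h4i: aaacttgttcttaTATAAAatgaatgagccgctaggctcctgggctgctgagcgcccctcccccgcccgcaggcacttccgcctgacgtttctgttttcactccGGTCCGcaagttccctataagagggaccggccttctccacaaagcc
Hist1h4a: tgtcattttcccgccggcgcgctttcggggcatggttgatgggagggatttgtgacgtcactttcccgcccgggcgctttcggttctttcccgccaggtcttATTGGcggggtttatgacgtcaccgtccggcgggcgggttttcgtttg
Hist1h4f: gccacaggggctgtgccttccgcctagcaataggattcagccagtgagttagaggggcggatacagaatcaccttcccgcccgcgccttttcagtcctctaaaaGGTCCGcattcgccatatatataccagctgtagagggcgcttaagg
Hist1h4d: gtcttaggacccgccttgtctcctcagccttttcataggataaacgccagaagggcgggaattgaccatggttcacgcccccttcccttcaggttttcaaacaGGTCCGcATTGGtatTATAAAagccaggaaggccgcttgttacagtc

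The 250 bases before the starts of Hist1h4j and Hist1h4k were nearly the same, with 226 identical of 236 aligned bases (95.76%). Promoter sequences of 300 bases, from 250 before the start to 50 after it, were matched for 62 of the 70 genes and set beside the 27025 promoters of the RefSeq table. GGTCCG stood in 11 of 12 H4 promoters (91.7%) and in 8.39% of all promoters. Among the 6 printed stretches it is missing from Hist1h4a. The stretch of Hist1h4b, whose DHS did not pass the test of the change either, is not printed and holds none of the marked strings. The 300-base promoter of Hist1h4b does hold GGTCCG. Those of Hist1h4j, Hist1h4f and Hist1h4a hold TATAAA outside the printed stretch. None of the strings searched contains another, and both strands were read.

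The second arrangement is that of Hist1h2ah and Hist1h2bk, whose starts face away from each other over 177 bases (chr13:22035644-22035820, plus strand). Capitals mark TTTGCAT, a part of the octamer read by Oct factors, and CCAAT on either strand.
Hist1h2ah/Hist1h2bk: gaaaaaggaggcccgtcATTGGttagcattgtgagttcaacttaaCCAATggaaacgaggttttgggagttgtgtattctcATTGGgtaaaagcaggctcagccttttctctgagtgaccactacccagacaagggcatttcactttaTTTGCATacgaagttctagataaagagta

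TTTGCAT was found in 38.9% of H2A and 37.5% of H2B promoters, against 4.59% of all promoters. CCAAT was in all 18 H2A, all 16 H2B, all 10 H3 and all 6 H1 promoters but in 3 of 12 H4 promoters (25%), with 37.9% over the table. AAACACA, the AC box known from H1 promoters, was in 5 of 6 H1 promoters (83.3%) and in 7.14% of the table. TATAAA was in 56.5% of histone promoters against 14.2%. GGGCGG, the letters of an Sp1 box, and TGGGAA, the core of the Ikaros motif, were in 37.1% and 22.6% of histone promoters and in 35.9% and 25.5% of all promoters. GGGCGG varied by type, from 75% of H4 and 66.7% of H1 to 6.25% of H2B promoters, and TGGGAA was in 8.33% of H4 promoters. All of these are counts of letters in a window.

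Coverage of the clusters was uneven. Of the 40 DHS, 37 lay at Hist1 genes on chromosome 13, 2 at Hist2 genes on chromosome 3 and 1 at the Hist3 genes on chromosome 11. The only Hist4 gene, Hist4h4 on chromosome 6, had none. On chromosome 13 all Hist1 genes except the pseudogene Hist1h2al, which stands alone and had no DHS, lie in a pair of blocks: the first, of 327 kb, held 24 genes, 17 of them with a DHS, and the second, of 403 kb, held 31 genes, 25 of them with a DHS. Of 35 DHS in the first block, 14 were histone DHS, 4 were promoter DHS of other genes and 17 lay away from any start, and of 40 in the second they were 23, 3 and 14.

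By type, a DHS was found at 4 of 6 H1 genes, 13 of 20 H2A genes, 14 of 19 H2B genes, 9 of 12 H3 genes and 7 of 13 H4 genes. The 23 genes without one were Hist1h1d, Hist1h1t, Hist1h2aa, Hist1h2ak, Hist1h2al, Hist1h2ao, Hist1h2ap, Hist1h2ba, Hist1h2bq, Hist1h2br, Hist1h4c, Hist1h4h, Hist1h4m, Hist1h4n, Hist2h2aa1, Hist2h2aa2, Hist2h2bb, Hist2h3b, Hist2h3c1, Hist2h3c2, Hist2h4, Hist3h2ba and Hist4h4. By the study's methods reads were cut to 36 bases, mapped as pairs and kept where they aligned to 1 place. A read in a repeated window can still be placed by its mate, which was not modelled. For each gene the share of 36-base windows that occur once in the genome was counted over 500 bp on either side of the start. It was 0% at Hist1h2ao, Hist1h2ap, Hist1h2bq and Hist1h2br and between 3.31% and 4.24% at Hist1h4m, Hist1h4n, Hist2h3c1 and Hist2h3c2. All 8 of these genes lacked a DHS, whereas no gene with a DHS was below 39.0%.

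Low uniqueness did not cover every gene without a DHS. Hist1h1d, Hist1h1t and Hist4h4 stood at 100%, Hist2h2bb at 98.3% and Hist2h4 at 96.9%. Between 50% and 90% unique windows, 36 of 42 histone genes had a DHS (85.7%), against 29.8% of 2010 other protein-coding genes in that range. Above 90%, 4 of 10 histone genes had one (40%), against 51.8% of 18426 other coding genes. The part of uniqueness in the missing DHS was not tested.

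**Figure D1:**
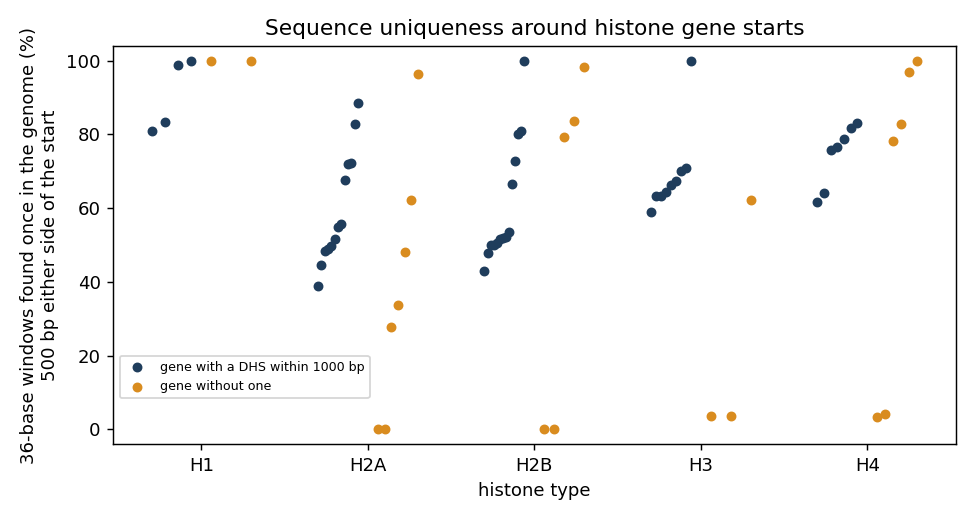
Share of 36-base windows that occur once in the genome, in percent over 500 bp on either side of the start, for each of the 70 histone genes by type, with dark points for genes with a DHS within 1000 bp and orange points for genes without one. The 8 genes at or below 4.24% all lacked a DHS, and genes at 100% were found in both classes.

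At the genes that had them, the DHS were more accessible than promoter DHS in general. Their median level over the 36 libraries was 5.05 log2 RPKM, against 4.57 over promoter DHS and 3.95 over all DHS. They were poorer in G and C (median 49.2% against 59.0% for promoter DHS) and held fewer CpG (4.75 against 6.19 per 100 bp), while the median widths were close (502 and 520 bp). Of the 40, 31 lay over a histone start and 9 beside one.

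The highest member was the DHS of Hist1h4b (chr13:23756856-23757027), with a mean of 6.21 log2 RPKM, above 99.1% of promoter DHS. The DHS shared by Hist1h3a and Hist1h4a, which lies over the Hist1h4a start (chr13:23761020-23761634) followed at 6.16, so it was also the highest at an H3 gene. Hist1h1a led the H1 genes at 6.03, Hist1h2af the H2A genes at 5.59, and the Hist3h2a/Hist3h2bb-ps DHS (chr11:58954316-58954858) the H2B symbols at 5.21. Hist3h2bb-ps is a pseudogene, and the highest DHS at a coding H2B gene was the first of Hist1h2ac/Hist1h2bc at 5.19. The Hist3 DHS differed between the lines by 0.06 at 0 h and 0.00 at 24 h. At the lower end stood both DHS beside Hist1h3e, at 4.13 and 4.16, neither of them over the start.

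Widths differed by arrangement only in part. The 10 DHS that covered the starts of a divergent H2A and H2B pair were 515 to 631 bp wide, and the 7 over an H4 start were 163 to 614 bp wide with a median of 205 bp. Of the latter, Hist1h4f (521 bp), Hist1h4d (557 bp) and Hist1h3a/Hist1h4a (614 bp) were as wide as the pairs. The widest member, 1030 bp, was the Hist1h1e/Hist1h2be DHS, which covers 1 of these starts, and the narrowest, 130 bp each, beside Hist1h2bn and Hist1h3e. In 19 of the 40 DHS at least 1 window of 36 bases also occurred in another member, over 53 pairs of DHS. Under the rule of 1 alignment, a read from such a window could be placed only by its mate. How many were placed that way is not known.

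**Figure D2:**
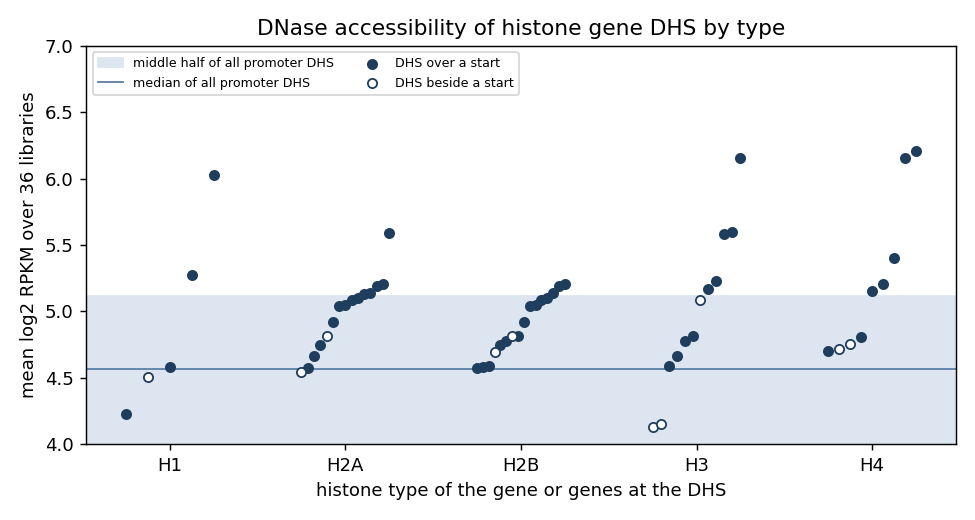
Mean log2 RPKM over 36 libraries of each histone DHS, by the type of its gene or genes, with filled points for DHS over a start and open points for DHS beside one. A DHS at genes of several types appears under each, the band runs from the 25th to the 75th percentile of all promoter DHS with a line at their median of 4.57, and the highest points are Hist1h4b at 6.21 and Hist1h3a/Hist1h4a at 6.16.

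The first comparison asked how the lines differed before induction. In a population of cells, a smaller share of cells with an open site and a less open site in every cell cannot be told apart. By the study's methods the 3 batches were separately collected time courses. The p-values rest on a spread between replicate libraries pooled over all 12 groups, not on the spread at 1 time alone. At 0 h the histone DHS lay at the same level in both lines on balance, with a median difference, Ikaros minus control, of 0.03 on the log2 scale and 22 of 40 above 0. Promoter DHS as a whole were higher in the Ikaros line, with a median of 0.34. With trends against level, GC content and width removed from the values, the promoter median was 0.052. With limma and an adjusted p below 0.05 over all DHS, 2 histone DHS were higher in Ikaros (5% of 40), against 7.81% of all DHS and 3387 of 13657 promoter DHS. In the other direction 1 histone DHS was lower (2.5%), against 5.04% of all DHS.

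Hist1h4k, one of the H4 copies, was the member most raised at 0 h, at 5.85, 5.70 and 5.69 log2 RPKM in the Ikaros libraries and at 5.36, 4.67 and 4.04 in the control libraries. All Ikaros values exceeded all control values, and the control values were spread over a range of more than 1 log2 unit. The difference was 1.06 (SE 0.22, limma adjusted p = 0.00286), and the call was lost without replicate 6 of every group (0.122) and on the compared groups only (0.152). Hist1h1e, a linker histone gene, stood at 4.78, 4.44 and 4.79 in Ikaros against 3.56, 4.37 and 3.86 in control, again without overlap, a difference of 0.74 (SE 0.20, limma adjusted p = 0.0151). That call was lost under 8 of 16 alternative settings, among them without Control 0 h replicate 4 (adjusted p = 0.0989), Control 0 h replicate 6 (0.0679) or Ikaros 0 h replicate 4 (0.0551).

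The DHS 863 bp from the start of Hist1h1b, another linker histone gene, went the other way. It read 3.43, 3.45 and 4.49 in Ikaros and 4.99, 4.60 and 4.55 in control, with no overlap but with Ikaros replicate 6 near the controls. The difference was −0.92 (SE 0.22, limma adjusted p = 0.00749). That call was lost under 4 of 16 settings, with adjusted p up to 0.207. These were the compared groups only, without replicate 4 or 5 of every group, and without Ikaros 0 h replicate 4 (0.0507). All Ikaros values were above all control values at 4 histone DHS (10%), against 12.4% of all DHS and 33.1% of promoter DHS. They were below all control values at 2 (5%), against 11.2% of all DHS.

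The control libraries of 0 h were uneven at these genes. Their medians over the 40 histone DHS were 5.30, 4.73 and 4.54 for replicates 4, 5 and 6, with an SD of 0.395, against an SD of 0.112 in the Ikaros libraries and of 0.114 for the control medians over promoter DHS. Within batches the median difference over the members was accordingly −0.28, 0.04 and 0.52. In the other groups the SD of the library medians over the histone DHS ranged from 0.0993 (Ikaros 6 h) to 0.339 (Control 2 h). Fitted on the 0 h groups only, limma called 2 of 52788 DHS at 0 h, against 6787 in the fit to all 36 libraries. How far the control replicates account for the differences at 0 h was not tested.

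At 2 h and 6 h most histone DHS were lower in Ikaros by a small amount in the fit to all 36 libraries, and none passed the test. The control medians over the members at 2 h were 5.53, 4.87 and 5.08 for replicates 4, 5 and 6. Across batches the median difference over the members had an SD of 0.197 at 2 h and 0.148 at 6 h. The 2 h median was −0.20, and 33 of 40 lay below 0, against a median of −0.02 over promoter DHS. limma called 0 of 40, against 0.195% of all DHS, and 6 of 40 had an unadjusted p under 0.05 against 5294 of 52788. The smallest p was at the second DHS of Hist1h4j, the one over its start (−0.89, limma adjusted p = 0.164, and 0.0407 without Control 2 h replicate 5), followed by Hist1h3h (−0.64, adjusted p = 0.389).

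At 6 h the median was −0.18 with 31 of 40 below 0, where the promoter median was 0.08. limma called 0 of 40, against 0.578% of all DHS, and 4 had an unadjusted p under 0.05 against 7263 of 52788. Hist1h4i (−0.89, limma adjusted p = 0.105) and Hist1h3g (−0.61, adjusted p = 0.212) had the smallest p. Every Ikaros value was below every control value at 6 histone DHS at 2 h (15%, against 7.07% of all DHS) and at 12 at 6 h (30%, against 10.9%). Neither count is a test of the members as a set.

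From 12 h on the calls fell at H4 genes. At 12 h limma called 2 histone DHS lower in Ikaros (5% of 40), against 0.428% of all DHS, and none higher. At 18 h it called 1 lower (2.5%), against 0.199%, and at 24 h again 2 lower (5%), against 0.517%. All of these were the DHS over the start of Hist1h4j or that over the start of Hist1h4k, and the 2 were the same at 12 h and 24 h.

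The DHS over the Hist1h4j start (chr13:21734906-21735111, 205 bp) is the second of 3 DHS around that gene. In the control line it stood at 4.95, 4.68 and 4.16 at 0 h, at 5.50, 4.71 and 5.53 at 2 h, at 5.30, 4.61 and 5.42 at 6 h, at 4.68, 5.22 and 5.60 at 12 h, at 4.87, 5.65 and 5.39 at 18 h, and at 5.38, 5.23 and 4.97 at 24 h. In the Ikaros line it stood at 5.43, 5.26 and 5.05 at 0 h, at 4.57, 3.87 and 4.63 at 2 h, at 4.21, 4.70 and 4.27 at 6 h, at 3.85, 3.80 and 3.85 at 12 h, at 4.20, 4.46 and 3.72 at 18 h, and at 3.70, 3.88 and 3.86 at 24 h. The Ikaros values were above all controls at 0 h, overlapped them at 6 h, and were below all controls at 2, 12, 18 and 24 h.

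The fitted difference at this DHS was −1.33 at 12 h (SE 0.27, limma adjusted p = 0.0138), −1.17 at 18 h (adjusted p = 0.0312) and −1.38 at 24 h (adjusted p = 0.00860). Group means at 24 h were 3.81 ± 0.0968 in Ikaros and 5.19 ± 0.210 in control (SD, n = 3). Within batches the 24 h difference was −1.68, −1.35 and −1.11. The 24 h call was lost without Ikaros 24 h replicate 4 (adjusted p = 0.0637) and whenever 1 replicate number was left out of every group, where the difference stayed between −1.23 and −1.52. The 12 h call was lost under 8 of 16 settings, among them without Control 12 h replicate 6 or any 1 Ikaros 12 h library (adjusted p between 0.0509 and 0.0732). The 18 h call was lost under 11 of 16, among them without Control 18 h replicate 5 or 6 or any 1 Ikaros 18 h library (between 0.0520 and 0.195).

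Its flanking DHS, which do not cover the start, differed otherwise. The first, 531 bp from the start, differed by −0.09 at 24 h and the third, 372 bp from it, by 0.29, and limma called neither at any time. At 0 h the third differed by −0.66, where the core differed by 0.65, and its change from 0 h to 24 h was 0.94 (adjusted p = 0.193). The core DHS had 77.8% unique 36-base windows and both flanks 100%.

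The DHS over the start of Hist1h4k (chr13:21750475-21750676, 201 bp) behaved in a similar way. In the control line it read 5.27, 5.44 and 5.39 at 2 h, 5.66, 5.14 and 5.60 at 6 h, 5.62, 5.92 and 5.59 at 12 h, 5.01, 5.70 and 5.84 at 18 h, and 5.45, 5.46 and 5.78 at 24 h. In the Ikaros line it read 4.80, 5.17 and 4.96 at 2 h, 5.06, 5.11 and 4.96 at 6 h, 4.31, 4.65 and 4.58 at 12 h, 5.06, 4.58 and 4.70 at 18 h, and 4.51, 4.41 and 4.55 at 24 h. Ikaros was below all controls at 2, 6, 12 and 24 h, and the lines overlapped at 18 h in 1 library of each.

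The difference at Hist1h4k was −1.20 at 12 h (SE 0.22, limma adjusted p = 0.00790) and −1.07 at 24 h (SE 0.22, adjusted p = 0.0142). Its 24 h means were 4.49 ± 0.0753 in Ikaros and 5.56 ± 0.187 in control (SD, n = 3), and the differences within batches were −0.93, −1.06 and −1.23. The 24 h call was lost under 5 of 16 settings, with limma adjusted p up to 0.236. It was lost without replicate 5 or 6 of every group. Single libraries whose removal lost it were Control 24 h replicate 6 (adjusted p = 0.0740) and Ikaros 24 h replicates 4 (0.0670) and 5 (0.0732). The 12 h call was also lost under 5 of 16 settings, with limma adjusted p up to 0.199. These were the compared groups only, and leaving out replicate 5 or 6 of every group. The others were without Ikaros 12 h replicate 4 (0.0561) or 6 (0.0502). This DHS and the Hist1h4j one had 28 windows of 36 bases in common, where a read could be placed only by its mate. Unique windows made up 74.3% at Hist1h4k.

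**Figure D3:**
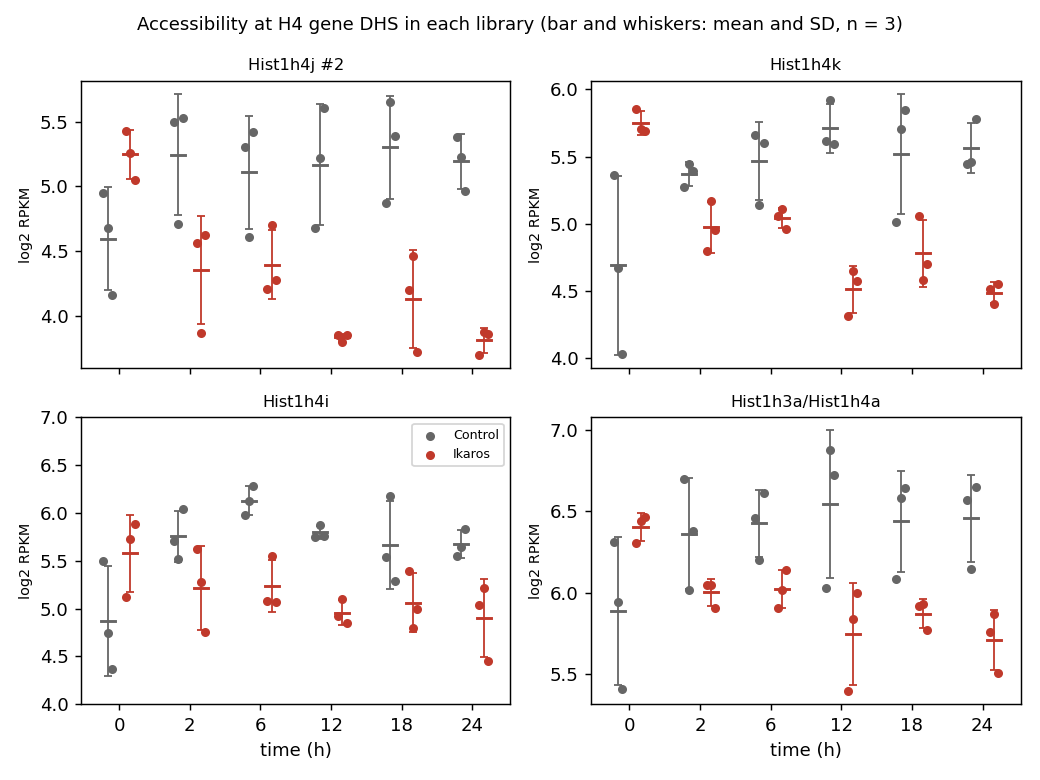
log2 RPKM in each of the 36 libraries at 4 DHS over H4 starts against time in hours, grey for control and red for Ikaros, with the mean and SD of 3 libraries as bar and whiskers. At Hist1h4j #2, the DHS over the Hist1h4j start, the 24 h means were 3.81 in Ikaros and 5.19 in control, and at Hist1h4k 4.49 and 5.56, while at 0 h Ikaros was the higher line at both.

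The other H4 starts had smaller differences of the same sign. At 24 h Hist1h4i differed by −0.78 and Hist1h3a/Hist1h4a by −0.74, followed by Hist1h4f (−0.53), Hist1h4d (−0.38) and Hist1h4b (−0.37), none of them past the limma threshold. All 7 DHS over an H4 start had a negative difference at 2, 6, 12, 18 and 24 h, with medians of −0.39, −0.40, −0.80, −0.57 and −0.74. At 0 h, 6 of the 7 were positive, with a median of 0.51, but within batches 11, 12 and 13 the median was −0.00, 0.49 and 0.88, with 4 of 7 negative in the first. DHS over H4 starts were set apart after these values had been seen, so the counts are a description.

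The 24 DHS over starts of the other histone types had differences nearer to 0, and the gap between both kinds of start was not tested. Their median differences were −0.19, −0.09, −0.04, −0.17 and −0.04 at 2, 6, 12, 18 and 24 h, and 15 of 24 were below 0 at 24 h. Across 16 alternative settings, 11 to 24 of them were below 0 at 2 h, 11 to 20 at 6 h and 5 to 18 at 24 h. None of the 24 was called at 2, 6, 12, 18 or 24 h, with 2 at an unadjusted p under 0.05 at 24 h. Over all DHS, 7740 of 52788 had such a p at 24 h. The 10 DHS of divergent H2A and H2B pairs ranged from −0.29 to 0.31 at 24 h, and the 5 H1 DHS from −0.61 at Hist1h1c to 0.18. Across all 40, the 24 h median was −0.09, close to −0.05 over promoter DHS.

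The sign at H4 starts was the same in each batch at 24 h. Within batches 11, 12 and 13 at 24 h the median over the 7 H4 starts was −0.51, −0.43 and −1.11, with 7 of 7 negative in each, whereas over the 24 other starts it was 0.32, 0.10 and −0.58. At 12 h the H4 medians were −0.63, −0.78 and −0.72, again with 7 of 7 negative in each batch. At 18 h they were −0.17, −0.65 and −0.82, with 5, 7 and 7 of 7 negative.

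In the library medians over the 7 H4 starts, the lines were apart at every time, with Ikaros higher at 0 h and lower from 2 h on. The Ikaros medians at 24 h were between 4.55 and 5.04 and those of control between 5.45 and 5.78, with group means of 4.86 ± 0.266 and 5.56 ± 0.187 (SD, n = 3). At 0 h they lay between 5.43 and 5.70 in Ikaros and between 4.60 and 5.36 in control. Between 2 h and 24 h the control means stayed within 5.47 and 5.70, and the Ikaros means within 4.86 and 5.08.

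**Figure D4:**
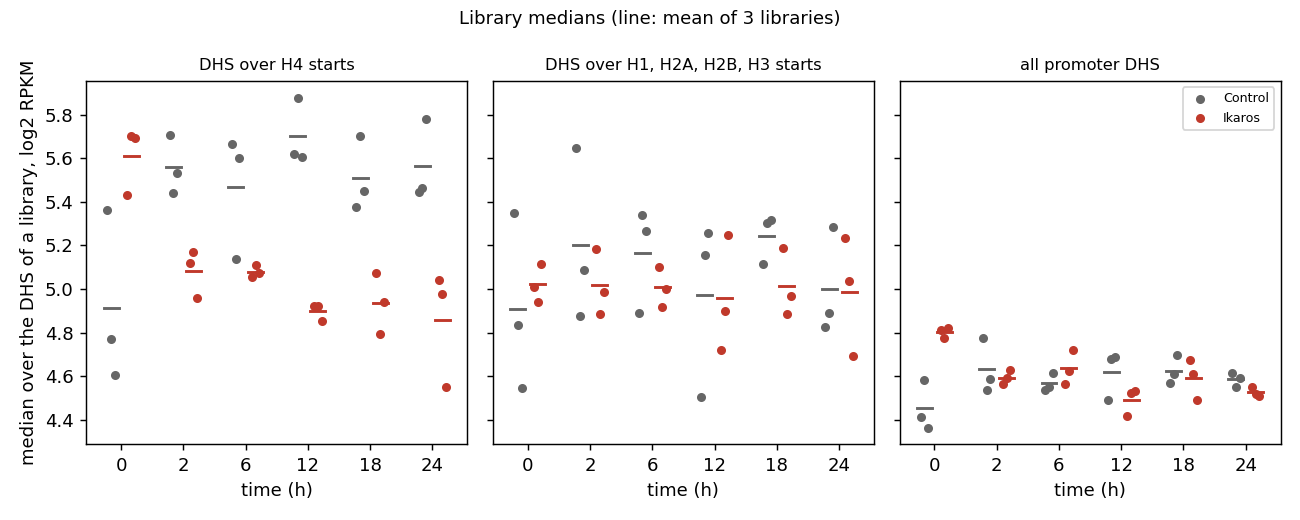
Median log2 RPKM per library over the 7 DHS at H4 starts, the 24 DHS at starts of the other types and all promoter DHS, against time in hours, grey for control and red for Ikaros, with a line at the mean of 3 libraries. Over H4 starts the 24 h means were 4.86 in Ikaros and 5.56 in control, over the other starts 4.99 and 5.00, and over promoter DHS 4.53 and 4.59.

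Counts of separated values gave a mixed picture for the set as a whole. All Ikaros values were below all control values at 7 of 40 histone DHS at 12 h (17.5%, against 8.72% of all DHS), at 11 at 18 h (27.5%, against 11.2%) and at 9 at 24 h (22.5%, against 10.4%). Among promoter DHS the shares were 12.0%, 13.8% and 15.0%. The 9 at 24 h held 6 of the 7 H4 starts, along with Hist1h1c, Hist1h2ab/Hist1h3b and Hist1h3g. At 2 members every Ikaros value was above every control value at 24 h, Hist1h3a (0.52) and the second DHS of Hist1h3e (0.85), neither called by limma. That is 5% of the members, against 15.1% of all DHS.

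**Figure D5:**
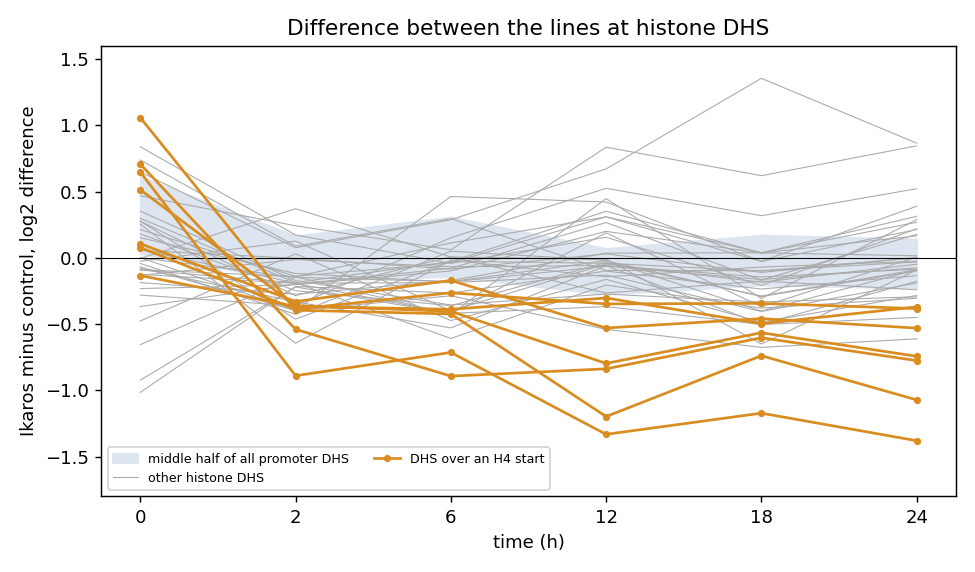
Fitted difference, Ikaros minus control, in log2 units against time in hours for each of the 40 histone DHS, orange for the 7 over an H4 start and grey for the rest, with a band from the 25th to the 75th percentile of all promoter DHS and times at even spacing. The orange lines start between −0.13 and 1.06 at 0 h and all lie below 0 from 2 h on, down to −1.38 at 24 h.

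The change of the line difference from 0 h to 24 h asked whether the lines differed by the same amount before and after induction. limma called 4 histone DHS lower and none higher (10% of 40), against 3.4% of all DHS called lower. Among promoter DHS it was 1374 of 13657, a share close to that of the members. The median over the members was −0.10, against −0.42 over promoter DHS and 0.12 over all DHS. With trends against level, GC content and width removed, the promoter median was −0.014. The 4 were all over H4 starts, whose median change was −1.26 with 7 of 7 below 0, while over the 24 other starts it was −0.16.

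Hist1h4k changed by −2.13 (SE 0.31, limma adjusted p = 0.00266) and Hist1h4j by −2.03 (SE 0.38, adjusted p = 0.00664), the latter at the DHS over its start. Both calls were lost without replicate 6 of every group (0.0562 and 0.0616), and that of Hist1h4k also on the compared groups only (0.0503). Hist1h4i (chr13:22041307-22041470) stood at 5.12, 5.73 and 5.88 in Ikaros and 5.50, 4.75 and 4.36 in control at 0 h, which overlap, and at 5.04, 5.22 and 4.45 against 5.55, 5.64 and 5.84 at 24 h, which do not. It changed by −1.48 (SE 0.37, limma adjusted p = 0.0203), a call lost under 7 of 22 settings, among them without Control 0 h replicate 6 (adjusted p = 0.0684) or Ikaros 24 h replicate 6 (0.0581). Without replicate 6 of every group the change was −0.77 and without replicate 4 it was −2.16.

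The fourth, Hist1h3a/Hist1h4a, was named after its values had been seen. It read 6.31, 6.44 and 6.46 in Ikaros and 6.31, 5.95 and 5.41 in control at 0 h, and 5.76, 5.87 and 5.51 against 6.57, 6.15 and 6.65 at 24 h. The lines overlapped at 0 h and not at 24 h, and the change was −1.26 (SE 0.30, limma adjusted p = 0.0182), lost under 5 of 22 settings, among them without Control 0 h replicate 6 (adjusted p = 0.0620). Without replicate 6 of every group it was −0.79 (0.310), and −0.52 with trends against level, GC and width removed (0.138). The 0 h difference entered each of these changes with 1.06 at Hist1h4k, 0.65 at Hist1h4j, 0.71 at Hist1h4i and 0.51 at Hist1h3a/Hist1h4a, and the control replicates of 0 h were uneven.

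Leaving 0 h out, no change passed the test. From 2 h to 24 h the line difference changed at 0 of 40 histone DHS by limma, as at 0% of all DHS, with 1 of 40 at an unadjusted p under 0.05, Hist1h4k (−0.68, adjusted p = 1.00), next to it Hist1h3a (0.88, adjusted p = 1.00). Over all DHS, 1503 of 52788 had an unadjusted p under 0.05, and the median over the members was 0.05. Within the Ikaros line, 24 h against 2 h, limma likewise called 0 of 40 and 0% of all DHS. An unadjusted p under 0.05 was seen at 1 of 40, against 37 of 52788 DHS. Hist1h4k differed by −0.48 and Hist1h4j by −0.54 at the DHS over its start (both adjusted p = 1.00), and the 7 H4 starts had a median of −0.29 with 7 of 7 below 0.

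In the control line over the same interval limma called 0 of 40 as well, against 0.00947% of all DHS. An unadjusted p under 0.05 was seen at 3 of 40, against 3440 of 52788 DHS. Hist1h2aj/Hist1h2bm (−0.50, limma adjusted p = 0.639) and Hist1h3h (−0.64, adjusted p = 0.681) came first, and the H4 median was −0.05 with 4 of 7 below 0. An F-test on the condition by time interaction over all 6 times called 2 histone DHS (5%), against 1.1% of all DHS. They were Hist1h4k (F = 13.46, limma adjusted p = 0.00597) and the DHS over the Hist1h4j start (F = 7.98, adjusted p = 0.0239). The Hist1h4k call was lost without replicate 5 or 6 of every group (0.196 and 0.217). That of Hist1h4j was lost under 8 of 45 settings, with adjusted p up to 0.371. Among them were the fits without Control 0 h replicate 6 (0.113) or Ikaros 0 h replicate 4 (0.0748) or 5 (0.0511).

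Genes that act on histone genes, or on their products, were read from 4 lists at their own promoter DHS. The list for transcription and mRNA processing of histone genes had DHS at all 21 genes, 29 DHS in all. At 24 h limma called 1 of 29, higher in Ikaros, a DHS at Pou2f1 (0.96, adjusted p = 0.0469), the gene of Oct-1, which binds the octamer of H2B promoters. Over all DHS limma called 427 of 52788 higher at 24 h. In the change from 0 h to 24 h it called 7 lower, none higher, led by Yy1 (−1.34), a transcription factor, and the main Pou2f1 DHS (−0.94). The median over all 29 was −0.68, beside −0.42 for promoter DHS. For this list and those that follow, 3.4% of all DHS and 1374 of 13657 promoter DHS were called lower in the same change. With trends against level, GC and width removed, 26 promoter DHS were called lower, and on the compared groups only 15. The calls at genes of these lists were not followed through the alternative settings.

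Of 19 DHS at histone chaperone genes, 3 were called lower in that change and none at 24 h, with 3 unadjusted. For this list and those after it, unadjusted counts at 24 h stand beside 7740 of 52788 DHS. The largest called changes at chaperone genes were at Supt16 (−0.98), a subunit of the FACT complex, and Rbbp4 (−0.86), a subunit of the CAF-1 complex. The 10 DHS of replication-independent variants had 2 called lower in the change, at H3f3a (−1.93), which encodes H3.3, and H2afj (−0.82), and 0 at 24 h, with 2 unadjusted. For DNA replication genes it was 4 of 23, led by Rpa2 (−0.94) and Rpa3 (−0.90), subunits of the single-strand binding protein RPA, and 0 at 24 h with 6 unadjusted. At 0 h limma had called 15 of 29, 8 of 19, 4 of 10 and 8 of 23 DHS of the 4 lists higher in Ikaros and none lower, beside 7.81% of all DHS and 3387 of 13657 promoter DHS, and at 24 h it called none of them lower. With trends removed, 319 promoter DHS were called higher at 0 h, and on the compared groups only 0.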

How the data were processed

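DNase-seq libraries of the Ikaros and control lines were compared at 6 times. Per the study's methods and the labels, the authors trimmed reads, aligned them uniquely to mm10 with Bowtie2, called HOMER peaks per replicate, merged them and counted reads with bedtools. The deposited values are log2 RPKM after TMM and ARSyN, which models the groups and removes structured noise. The log base was read from the values: base 2 gives 369487 to 432755 RPM per library over the DHS, base e more than a library holds. The 12 group means spanned 6 of 11 possible dimensions and the residuals 23 of 24, so groups are not fully independent and p-values may be too small. The depth per library cannot be read from these values, so intervals for counting error are left out. Coordinates are as deposited, with 1 bp open at the start.

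limma 3.58.1 in R 4.3.3 fitted 12 group means to all 36 libraries with an intensity trend, and adjusted p-values are two-sided Benjamini-Hochberg values over 52788 DHS with a threshold of 0.05. Scripts in Python 3.11.15 counted windows, GC and motifs. The fit was tested on simulated data. The members and lists were chosen with earlier results of these data known. Values are given for the 3 largest called DHS per direction and comparison (or, with none, the 2 smallest p), the 2 highest and 2 lowest, the highest of each type, all Hist3 and Hist4 DHS, the widest and narrowest, and those called at 3 or more times, and for up to 2 called genes per list. Replicate numbers pair libraries because the labels tie each to a batch. Over 18 pairs of an Ikaros and a control library with the same time and number, deviations from group means correlated between −0.175 and 0.183. Alternatives were a replicate block, no intensity trend, array weights, only the compared groups, quantile normalization, trends with level, GC and width removed, DHS of low level left out, TSS windows of 500 and 2000 bp, the nearest TSS only, and leaving out replicates.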

Additional observations from a re-analysis of the deposited data

Results flagged for a closer look

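At 4 histone DHS the difference between the lines was not the same at 0 h and at 24 h by a limma test of the change itself, against 3.4% of all DHS and 1374 of 13657 promoter DHS called lower, the latter a share close to the members' 10%. The change, in log2 units of Ikaros minus control, was −2.13 at Hist1h4k, −2.03 at the DHS over the Hist1h4j start, −1.48 at Hist1h4i and −1.26 at Hist1h3a/Hist1h4a. The F-test on condition by time also set Hist1h4k (F = 13.46) and the Hist1h4j start (F = 7.98) apart. All 4 lie over H4 starts. Without replicate 6 of every group the change was −0.77 at Hist1h4i and −0.79 at Hist1h3a/Hist1h4a, and none of the 4 was called. The part of the uneven 0 h control libraries was not tested.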

How the results depend on the processing

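No signed difference turned its direction among the DHS named as called, over 16 or 22 alternatives each. The F values, with 45 alternatives each, have no direction. With the replicate number as a block the counts of histone DHS called were the same as without it, namely 3 before induction, 2 at both 12 and 24 h, 1 at 18 h, 4 in the change from 0 to 24 h and 2 in the interaction. Fitted on the compared groups only, the counts were 0 at 0, 12 and 18 h and 1 in the change. Array weights gave 3 at 18 h, 6 at 24 h and 1 in the interaction. With trends against level, GC and width removed, 0 were called at 18 h, 2 in the change and 1 in the interaction. Quantile normalization gave 0 at 18 h and moved the 12 h median over members from −0.05 to 0.084. Leaving out replicates or single libraries gave between 2 and 6 calls at 0 h, up to 1 at 2 h (0 to 1), 0 to 3 at 12 h, 0 to 2 at both 18 and 24 h, 0 to 6 in the change and 0 to 3 in the interaction. The causes of these shifts were not tested. The 7 H4 starts were all below 0 at 2, 12, 18 and 24 h under all 16 alternatives, and 5 to 7 of them in the change. Over all DHS the change had 3302 calls, 1345 after quantile normalization, which moved its median from 0.12 to −0.04, and 174 with trends removed. At 24 h, 427 DHS were called higher and 273 lower, 416 and 402 after quantile normalization. The depth behind each value is unknown.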
